A study of Caenorhabditis elegans with 2 samples.

Results

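The large subunit of the cytosolic ribosome of the nematode Caenorhabditis elegans is described here through the promoters of its protein genes. The genes were the protein-coding genes whose symbol starts with rpl- or rla- in the Ensembl annotation of WBcel235, 50 of 19973 protein-coding genes on the nuclear chromosomes. The measurement was ChIP-seq, which sequences the DNA that an antibody pulls down together with a crosslinked protein. The protein was CEH-27, a transcription factor with a homeodomain of the NK-2 class. Whole young adults of 73 hours, males and females pooled, came from strain OP139, which carries the fosmid transgene wgIs139 with ceh-27 joined at its C-terminus to TY1, EGFP and 3xFLAG, the marker unc-119(+) and the allele unc-119(ed3). All samples shared this genotype and age, were synchronised by starving hatched larvae after bleaching, and form 1 group of 2 biological replicates, numbered 1 and 4. The transgene adds copies of ceh-27 to a strain of 1 genotype, and no strain without the tag was analysed here, so the dependence of any peak on the tagged protein was not tested. The promoter of a gene began 1000 bp before an annotated 5' end and stopped 200 bp after it, and a promoter peak was a region of the authors' reproducible set of 2328 peaks whose summit fell in it. The authors gave each region a signal, whose scale is not stated, and ranks are by this signal within a list, with 1 the strongest. The lists hold no read counts, so the depth behind each value is unknown.

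Ribosomal proteins bind the ribosomal RNA and are made in nearly equal amounts, so that their genes are among the most strongly and most uniformly transcribed of any animal cell. In the large subunit they surround the catalytic centre, where peptide bonds form, the exit tunnel for the nascent chain, the stalk that recruits translation factors, and the bridges to the small subunit. Most roles given below are known from yeast, bacterial or mammalian ribosomes and are stated as background. The RefSeq annotation matched all 50 genes and named a ribosomal protein as the product of 48. The exceptions were rpl-24.2, whose RefSeq product is a putative ribosome biogenesis protein related to RLP24, and rpl-42, whose product is a protein with a NAM-associated domain. They were kept, since the symbol was the rule, and among the other 48 genes 32 (66.7%) had a promoter peak.

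The sequences under the 5 strongest member summits are printed to place the values that follow, each spanning 50 bp on either side of the summit. They were read from the RefSeq copy of the WBcel235 assembly, which is the same assembly as build ce11, and run 5' to 3' on the strand of the gene. The peaks were those of rpl-3 at chrIII:3867530-3867630 (plus strand), rpl-15 at chrIV:654878-654978 (minus strand), rpl-35 at chrIII:7854632-7854732 (plus strand) and rpl-20 at chrIV:4750035-4750135 (minus strand). The window of rpl-12, at chrIV:13240652-13240738 (minus strand), ends at the annotated 5' end of the gene and is 87 bases long. For contrast, 2 genes without a promoter peak are shown at the members' median distance, 305 bp upstream of the 5' end, namely rpl-37 at chrIII:3528287-3528387 (plus strand), which there lies inside the gene pitp-1, and rpl-42 at chrII:11092358-11092458 (plus strand). Capitals mark 4 words on either strand, namely ACCGTA with its reverse complement TACGGT, the word GAGACC with its reverse complement GGTCTC, the word CACTCG with its reverse complement CGAGTG, and lastly AAGTG with its reverse complement CACTT.
rpl-3: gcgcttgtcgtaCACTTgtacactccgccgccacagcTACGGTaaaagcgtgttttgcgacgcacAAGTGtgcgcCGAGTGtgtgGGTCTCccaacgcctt
rpl-15: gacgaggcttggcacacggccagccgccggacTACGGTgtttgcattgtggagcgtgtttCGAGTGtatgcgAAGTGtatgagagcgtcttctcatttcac
rpl-35: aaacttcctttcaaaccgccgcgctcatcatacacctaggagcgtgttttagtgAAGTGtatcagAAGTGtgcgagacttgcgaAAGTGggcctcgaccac
rpl-20: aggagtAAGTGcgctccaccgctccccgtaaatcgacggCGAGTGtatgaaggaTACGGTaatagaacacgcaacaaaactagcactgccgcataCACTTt
rpl-12: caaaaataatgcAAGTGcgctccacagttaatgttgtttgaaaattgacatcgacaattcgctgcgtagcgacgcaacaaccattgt
rpl-37: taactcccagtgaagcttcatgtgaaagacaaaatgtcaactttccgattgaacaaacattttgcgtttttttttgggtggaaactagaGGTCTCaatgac
rpl-42: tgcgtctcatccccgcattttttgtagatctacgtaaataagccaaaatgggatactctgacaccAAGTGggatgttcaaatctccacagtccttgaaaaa
The windows of rpl-3, rpl-15 and rpl-20 held TACGGT together with CGAGTG, and that of rpl-3 held GGTCTC as well. Those of rpl-35 and rpl-12 held none of the 6-base words but held AAGTG, with 3 copies at rpl-35 and 1 at rpl-12.

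Of the 50 genes, 33 (66%) had a reproducible promoter peak, against a background of 8.47% of all 19973 protein-coding genes. The small-subunit genes (symbols starting with rps-) had a peak at 25 of 31 (80.6%), translation factor genes at 14 of 41 (34.1%), and genes of the mitochondrial ribosome (mrpl- and mrps-) at 12 of 70 (17.1%). Cytosolic ribosomal protein genes of both subunits thus had peaks at a higher share of their promoters than the genes of the mitochondrial ribosome. The 2328 strongest regions of replicate 1 gave a promoter summit at 36 members (72%, background 8.47%). Those of replicate 4 gave 32 (64%, background 8.08%), and 29 (58%) had one among the 2328 strongest regions of both replicates, where the background was 6.03%. The summits of the replicates need not coincide in this count. At 27 members both replicates had, among these regions, a summit within 100 bp of the reproducible one. With all 30000 regions of a list counted, 45 members (90%) had a promoter summit in the pooled list, 48 (96%) in replicate 1 and 46 (92%) in replicate 4. The matching backgrounds were 39.2%, 42.6% and 37.8%.

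**Figure D1:**
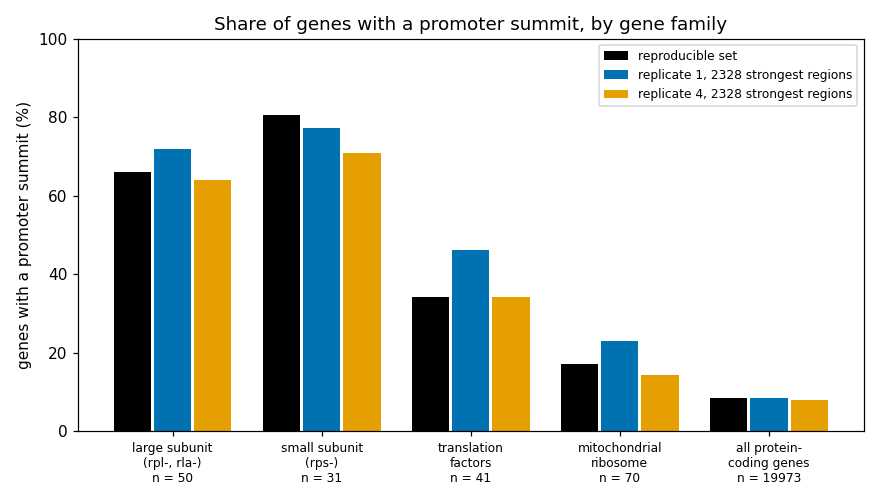
Share of genes with a promoter summit (vertical axis, percent) for 5 sets of protein-coding genes, whose numbers stand under each set. Bars give the reproducible set and the 2328 strongest regions of each replicate. The large-subunit genes reach 66% in the reproducible set and the whole genome 8.47%, and the order of the 5 sets is the same in every list.

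The 33 member peaks were all distinct. Their median rank was 584 of 2328, against 1085 for the other 1284 promoter peaks, and their median signal was 192 against 140. Of the strongest 582 peaks 16 belonged to members, of the next 582 there were 8, of the next 5, and of the weakest 4, while all promoter peaks fell from 377 to 289 over the same steps. The range was wide nonetheless, from 1072 at rpl-3 to 96.4 at rpl-34, and 4 members were among the 20 strongest peaks of the genome. The highest −log10 q in the authors' set was 3.46, and the 26 member peaks down to rank 1423 stood at it. Member peaks from rank 1530 on held lower values, 2.79 to 3.08. Among them the value did not follow rank, with 3.01 at rank 1530, 3.08 at rank 1824 and 2.79 at rank 2142. The share of peaks at the highest value over the whole set was not counted. The peaks were 89 to 344 bp wide with a median of 228 bp, whereas the median over the whole set was 344 bp.

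At the catalytic centre, rpl-3 encodes uL3, which reaches towards the site of peptide bond formation in yeast. Its promoter peak ranked 2 in the pooled list with a signal of 1072, 2 in replicate 4 (628) and 1 in replicate 1 (455), 274 bp upstream of the 5' end. The other genes of this role did not have a reproducible promoter peak. rpl-2, which encodes uL2, an RNA-binding protein needed for peptide bond formation in bacteria, had its strongest promoter summit at rank 5559 of the pooled list (signal 59.5), 385 bp upstream, with ranks of 6554 in replicate 4 and 10353 in replicate 1. rpl-10, which encodes uL16, a late-joining protein of the subunit in yeast, had no promoter summit in the pooled list or in replicate 4, and 1 at rank 5778 (signal 26.8) in replicate 1. The strongest and some of the weakest signals among members thus occur within 1 role.

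Of the 4 stalk genes, 2 had a promoter peak, where the share was 66% over all members and 8.47% over all protein-coding genes. No difference between the roles was tested. rpl-12 encodes uL11, at the base of the stalk, and its peak ranked 53 in the pooled list (427), 69 in replicate 4 (254) and 43 in replicate 1 (173). Its summit lay 37 bp from the 5' end, closer than at any other member with an upstream summit. rla-1, which encodes an acidic P1 protein of the stalk, ranked 2142 (96.4) in the pooled list and 957 in replicate 4, with its summit 82 bp downstream of the 5' end in coding sequence. Replicate 1 had no summit within 100 bp of that of rla-1, and its strongest summit in the promoter ranked 4180, so that this peak was placed differently in the replicates. rla-0, which encodes uL10, the protein that holds the acidic pairs, had its strongest summit 255 bp upstream at rank 3099 (78.7), with ranks of 1755 in replicate 1 and 5969 in replicate 4. rla-2, which encodes the partner P2, had a promoter summit only in replicate 1, at rank 18298 (17.4).

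The 5S particle, which joins the 5S RNA to the subunit and in mammals also restrains the p53 regulator MDM2 when free, was represented by rpl-5 and the rpl-11 pair. rpl-11.2 ranked 111 in the pooled list (351), 86 in replicate 4 (237) and 146 in replicate 1 (116), with the summit 391 bp upstream. Its paralogue rpl-11.1 ranked 14559 (39.2), 5991 (41) and 4082 (30.4) in the same order of lists. The pair thus lay far apart in rank, and rpl-11.2 was the only one of the 2 members on chromosome X with a peak. rpl-5 ranked 397 in the pooled list (225), 565 in replicate 4 (127) and 270 in replicate 1 (95.2), with the summit 414 bp upstream.

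Of the 8 exit tunnel genes, 4 had a promoter peak (all members 66%, all protein-coding genes 8.47%). rpl-35 encodes uL29, which lies at the tunnel exit and offers a docking site for factors that receive the nascent chain in yeast. Its peak ranked 4 in the pooled list (818), 5 in replicate 4 (489) and 4 in replicate 1 (327), with the summit 452 bp upstream. The peaks of rpl-4 and rpl-39, whose products line the tunnel, ranked 935 (152) and 949 (150.0) in the pooled list, and that of rpl-31, a protein of the tunnel rim, ranked 1619 (113). rpl-31 was the only member peak outside the 2328 strongest of replicate 4 when the strongest promoter summit was taken, at rank 3092. The others had weaker promoter summits. rpl-17, whose uL22 lines the tunnel, ranked 5066 (61.9) in the pooled list, 9513 in replicate 4 and 3349 in replicate 1, and its summits lay within a few bases of each other, at 433, 432 and 435 bp upstream. rpl-26, which encodes uL24, ranked 18773 (34.6) in the pooled list, 16783 in replicate 4 and 20590 in replicate 1, at 781, 267 and 654 bp upstream, so that its summits did not coincide.

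The rpl-25 pair encodes uL23, which contacts the signal recognition particle at the tunnel exit. rpl-25.2 ranked 4341 (66.6) in the pooled list and 8603 in replicate 4, and 1598 (45.2) in replicate 1, with summits 147, 180 and 119 bp upstream. rpl-25.1, the other member on chromosome X, had a promoter summit in replicate 4 alone, at rank 15245 (27.4). Neither gene of this pair had a reproducible promoter peak.

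Of the 5 genes for bridges to the small subunit, 3 had a promoter peak (all members 66%, all protein-coding genes 8.47%). rpl-41.2 and rpl-41.1 encode eL41, a very short peptide between the subunits, and are neighbours on chromosome I. The peak at rpl-41.2 ranked 171 (306) in the pooled list, 199 (191) in replicate 4 and 154 (115) in replicate 1, with its summit 260 bp upstream. The strongest promoter summits of rpl-41.1 ranked 21914 (31.7), 10861 (32.2) and 16612 (18.2) in the same order. rpl-24.1, for eL24, ranked 323 (244) in the pooled list, 317 (161) in replicate 4 and 493 (76.5) in replicate 1, with the summit 267 bp upstream. Its relative rpl-24.2 ranked 611 (187), 607 (123) and 745 (63.7), 161 bp upstream and inside an intron of C03D6.1. This was the only one of the 4 numbered pairs in which both genes had a promoter peak. rpl-30, for eL30, ranked 1824 (106) in the pooled list, and rpl-19, for eL19, fell just short of the reproducible set at rank 2436 (89.7), with ranks of 2871 in replicate 4 and 2148 in replicate 1 and summits 256, 246 and 238 bp upstream.

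Of the remaining 27 genes, for proteins outside these roles, 21 had a promoter peak (all members 66%, all protein-coding genes 8.47%). rpl-15, for eL15, ranked 3 in the pooled list (852), 7 in replicate 4 (479) and 3 in replicate 1 (373), with the summit 352 bp upstream. rpl-20, for eL20, ranked 15 (593) in the pooled list, 37 (314) in replicate 4 and 6 (279) in replicate 1, with the summit 307 bp upstream. Both are among the 20 strongest peaks of the genome in the pooled list. rpl-7A, for eL8, ranked 97 (366), 100 (233) and 106 (130), and its summit lay 73 bp upstream. rpl-43, for the zinc-binding eL43, ranked 106 (358), 136 (213) and 79 (142), and its summit, 739 bp upstream, was the farthest of the members. rpl-22, for eL22, ranked 193 (296), 227 (184) and 182 (109), with the summit 253 bp upstream. In these 12 strongest members the ranks in both replicates stayed within the top 582, whereas the weaker members spread further.

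Among the weaker peaks of these genes were rpl-1, rpl-33 and rpl-34. rpl-33 ranked 1747 in the pooled list, 1383 in replicate 4 and 3524 in replicate 1, and rpl-1 ranked 1423, 990 and 2386. The replicate 1 rank of rpl-1 belongs to another summit, farther upstream, and the replicate 1 summit that matches its reproducible peak ranked 4094. rpl-34, for eL34, had the weakest member peak, at rank 2143 (96.4), next to rla-1. The first members outside the set were rpl-19 at 89.7 and rpl-13 at 86.1, so that the edge of the set passes through a continuous range of member signals.

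**Figure D2:**
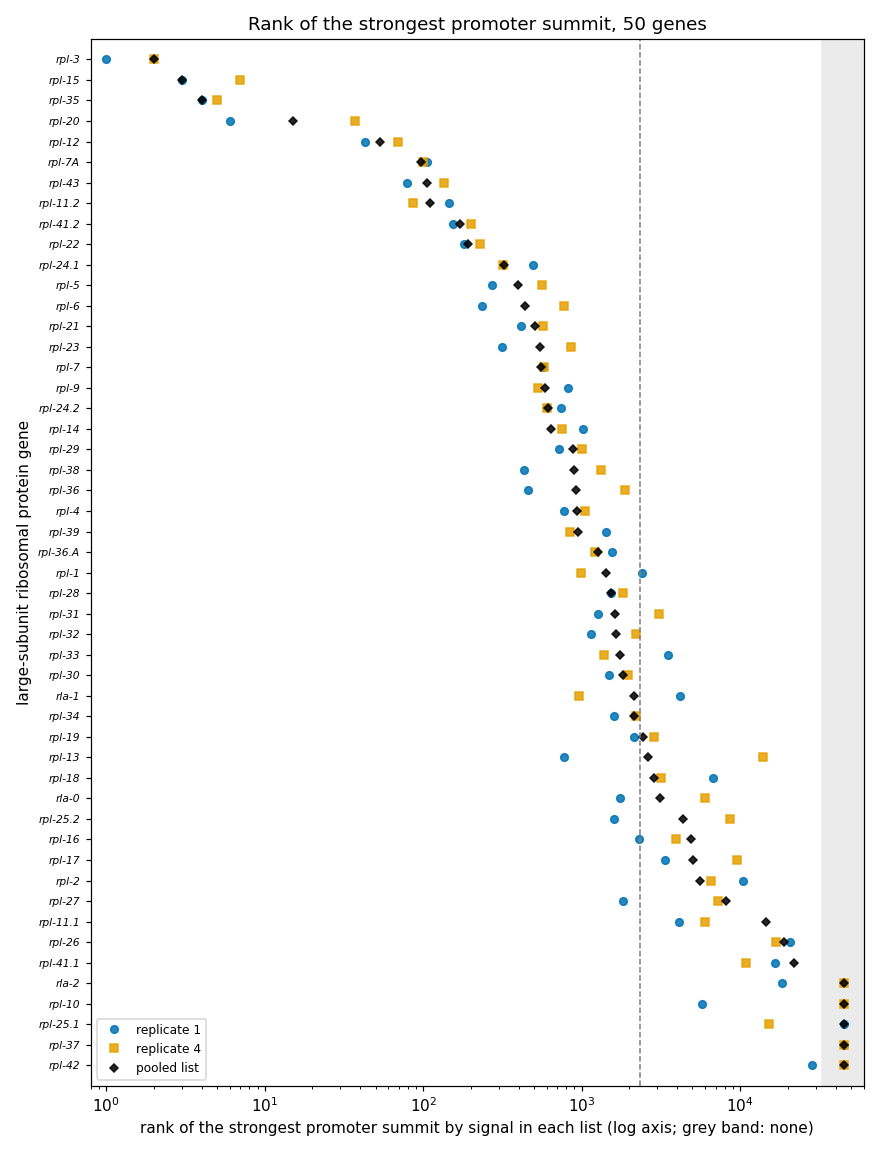
Rank of the strongest promoter summit (horizontal axis, log scale, 1 is the strongest) for all 50 genes (vertical axis), in replicate 1, replicate 4 and the pooled list. The dashed line is rank 2328, the size of the reproducible set, and points in the grey band had no promoter summit in that list. The pooled ranks spread from 2 at rpl-3 to 21914 at rpl-41.1, and 5 genes have no summit in the pooled list.

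Of the 17 genes without a promoter peak, 12 had a promoter summit in the pooled list, at ranks from 2436 to 21914 with a median of 4963, and 7 of these lay 200 to 450 bp upstream. Over all protein-coding genes, 39.2% had a promoter summit at any rank of that list. Among these 12, replicate 1 ranked the summit ahead of replicate 4 at 8. Replicate 1 placed 6 of the 17 within its top 2328 regions (8.47% of all genes) and replicate 4 placed 0 there (8.08%). The 17 genes were defined by falling outside the 2328 strongest pooled regions, so these counts are partly set by that choice. The 6 were rla-0, rpl-13, rpl-16, rpl-19, rpl-25.2 and rpl-27. rpl-13, for eL13, showed the widest split, with rank 770 (62.9) in replicate 1, 13900 (28.7) in replicate 4 and 2638 in the pooled list, at 216, 284 and 259 bp upstream. rpl-16, for uL13, ranked 2292 in replicate 1, 3953 in replicate 4 and 4860 in the pooled list, and its summit lay 376 bp upstream in replicate 1 but 834 and 931 bp in the others. rpl-27, for eL27, ranked 1827, 7253 and 8084, with the pooled summit 986 bp upstream, at the edge of the window. rpl-18, for eL18, went the other way, with rank 3153 (53.4) in replicate 4, 6767 (25.4) in replicate 1 and 2853 (82.3) in the pooled list, all within 147 to 160 bp upstream. Most of the genes without a reproducible peak had a promoter summit in 1 or both replicates. The replicate lists include background and gave one at 42.6% (replicate 1) and 37.8% (replicate 4) of all genes.

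Genes with no promoter summit in the pooled list were 5, namely rla-2, rpl-10, rpl-25.1, rpl-37 and rpl-42. rpl-42 had 1 in replicate 1 only, at rank 28448 (14.1), near the end of the list. rpl-37, for the zinc-binding eL37, was the only member with no promoter summit in any list, and its nearest pooled summit was 1270 bp away. As its printed window shows, the sequence 305 bp upstream of rpl-37 holds GGTCTC, and that of rpl-42 holds AAGTG but none of the 6-base words.

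At most members the replicates placed the summit closely. The strongest promoter summits of the replicates lay within 100 bp of each other at 29 of 33 members and up to 674 bp apart at the others, rla-1, rpl-1, rpl-30 and rpl-34. A summit within 100 bp of the reproducible one was present in replicate 4 at all 33 members and in replicate 1 at 32, with median offsets of 5 and 8 bp and largest offsets of 19 and 45 bp. The 32 members matched in both replicates had a median rank of 474.5 in replicate 1 and 678 in replicate 4. Replicate 1 ranked 21 of these 32 (65.6%) ahead of replicate 4, where the other promoter peaks were evenly split (605 of 1214, 49.8%). Spearman's rho between the signals of the replicates was 0.841 over these 32 peaks and 0.609 over the 1214 other promoter peaks. Both values are descriptions across peaks that share 2 libraries.

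The member summits lay at a common distance. The median was 305 bp upstream of the nearest annotated 5' end (interquartile range 260 to 381 bp), and 32 of 33 were upstream. Between 200 and 450 bp upstream, a band chosen after values were seen, lay 27 of 33 (81.8%). It held 553 of 1658 (33.4%) of the other genes with a promoter peak, whose median was 251 bp (133 to 459.5 bp). The small-subunit genes were similar, with a median of 293 bp and 20 of 25 (80%) in this band. Translation factor genes had a median of 239 bp with 7 of 14 (50%) in the band, and mitochondrial ribosome genes a median of 159.5 bp with 2 of 12 (16.7%). The most frequent bin of 100 bp was 300 to 400 bp upstream in the members (13 genes, 39.4%) and 100 to 200 bp upstream in the other genes (356, 21.5%). Measured to the start codon, the medians were much closer, 315 bp (275 to 386 bp) for the members and 306.5 bp (184 to 550.8 bp) for the others, so the members differed there mainly in their narrower spread. Annotated 5' ends in this nematode are often the sites where a spliced leader is joined to the RNA rather than sites of initiation. Of the exceptions, rpl-12 and rpl-7A were closer than 100 bp, rpl-24.2 lay at 161 bp, rpl-35 just beyond the band at 452 bp, rpl-43 at 739 bp and rla-1 downstream.

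**Figure D3:**
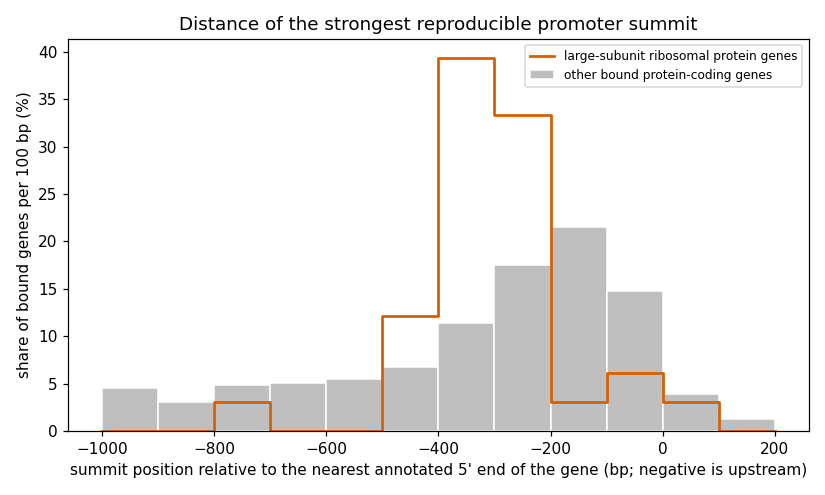
Position of the strongest reproducible promoter summit relative to the nearest annotated 5' end of the gene (horizontal axis, bp, negative is upstream) as the share of genes in each bin of 100 bp (vertical axis, percent). The line gives the 33 large-subunit genes and the grey bars the 1658 other genes with a promoter peak. The members reach 39.4% in the bin from 300 to 400 bp upstream, and the other genes are highest, at 21.5%, from 100 to 200 bp upstream.

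Many of these summits stood between divergent genes. At 23 of the 33 member peaks (69.7%) the summit also fell in the promoter of another protein-coding gene, against 406 of all 1317 promoter peaks (30.8%), and at 21 the other gene lay on the opposite strand. The member had the nearest 5' end at 21 of 33. At 3 peaks the partner was a small-subunit gene, rps-10 at rpl-24.1 (343 bp from its 5' end), rps-14 at rpl-36 (264 bp) and rps-30 at rpl-39 (264 bp). Other partners with a part in gene expression were pab-1, which encodes a poly(A)-binding protein and starts 28 bp from the summit of rpl-30, mrpl-49 of the mitochondrial ribosome at rpl-28 (138 bp), and lpd-7, a homologue of the assembly factor pescadillo, at rpl-9 (277 bp). lin-54, for a DNA-binding subunit of the DREAM complex, shared the peak of rpl-12 at 356 bp. nuo-1, a subunit of the respiratory chain's complex that oxidises NADH, shared that of rpl-36.A at 306 bp, and rab-11.1, a GTPase of membrane recycling, that of rpl-7 at 683 bp. A peak in a shared stretch cannot be given to 1 of the genes from these files.

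**Figure D4:**
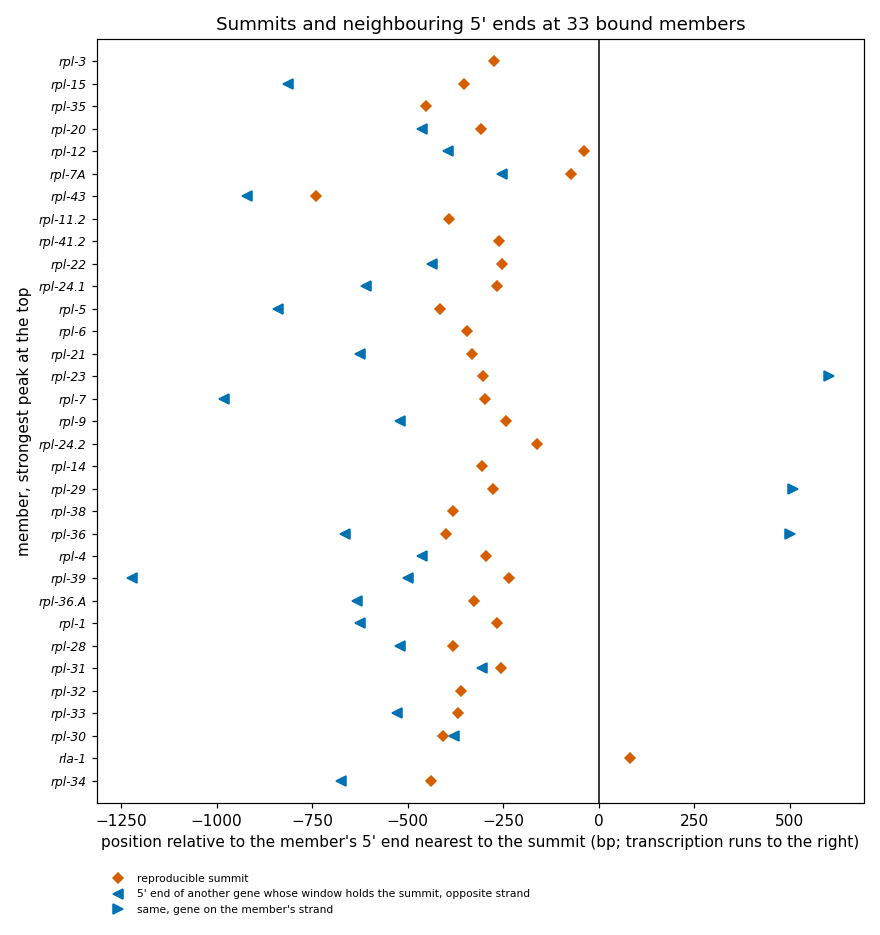
Positions of the reproducible summit (diamonds) and of the 5' ends of other protein-coding genes whose promoter holds the same summit (triangles, pointing in the direction of transcription) relative to the member's nearest 5' end (horizontal axis, bp), for 33 genes ordered by signal (vertical axis). Of the summits 27 lie 200 to 450 bp upstream, and at 21 members a gene on the opposite strand shares the peak.

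The upstream neighbourhood of genes with and without a peak was similar in length. The gap to the next protein-coding gene lying wholly upstream had a median of 623 bp (105 to 11497 bp) at the 33 genes with a peak. At the 17 without, it was 558 bp (97 to 9034 bp). Genes that contain the 5' end were passed over, namely pitp-1 at rpl-37 (gap 9034 bp) and C03D6.1 at rpl-24.2 (764 bp), so these 2 gaps are not free of genes. The upstream neighbour was divergent at 22 of 33 and 10 of 17, and a gene on the same strand ended within 500 bp at 1 of 33 and 4 of 17. Intergenic sequence held 30 of the 33 summits. The exceptions were rla-1, rpl-24.2, and rpl-30, whose summit lay in 5' untranslated sequence, 28 bp inside pab-1. Some members hold snoRNA genes between their start and end, whose products guide the modification of ribosomal RNA. Whether these lie in introns or on the member's strand was not checked. With a peak, such hosts were rpl-6 with 3, rpl-15 and rpl-7A with 2 each, and rpl-4, rpl-7 and rpl-24.1 with 1 each. Without a peak they were rpl-2 and rpl-26 with 1 each. Over all 50 members, with or without a snoRNA gene, 66% had a peak. Members with a peak were found on every nuclear chromosome. On chromosome I they were 10 of 17, where 10.6% of all protein-coding genes had a promoter peak, on II 6 of 9 (all genes 7.6%) and on III 7 of 9 (11.9%). On IV they were 6 of 8 (all genes 8.05%), on V 3 of 5 (5.89%) and on X 1 of 2 (9.23%).

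Short words near the summits differed from those at other promoter peaks. A window of 50 bp to each side of the summit was read on both strands for 1301 words of 6 bases. Those with the largest excess at the members, after removing overlapping words, were ACCGTA, followed by GAGACC, then by CACTCG. They were chosen on these 33 peaks, so their shares are a description. ACCGTA was present at 18 of 33 (54.5%) against 75 of 1284 other promoter peaks (5.84%), GAGACC at 14 (42.4%) against 10.4%, and CACTCG at 12 (36.4%) against 7.55%. The 22 small-subunit peaks that are not shared with a member were counted among the other promoter peaks when the words were picked, and there the shares were 36.4%, 36.4% and 22.7%, compared with 1.88%, 6.53% and 8.9% at the 1011 peaks outside promoters. Any of the words was present at 26 of 33 members (78.8%) and 263 other promoter peaks (20.5%). All 3 were present at rpl-3, rpl-6, rpl-21 and rpl-29 (12.1%), against 5 other promoter peaks (0.389%). Base composition was close, with a median of 51.5% G and C at members and 49.5% at other promoter peaks.

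Each word was more often on 1 strand of the gene than on the other. Read along the member, ACCGTA was present as written at 14 of 18 and as TACGGT at 4, among them rpl-3, rpl-15 and rpl-20 in the windows printed above. In the same reading GAGACC was present as GGTCTC at 12 of 14 and CACTCG as CGAGTG at 11 of 12. ACCGTA lay on the gene side of the summit at 13 of 18, CACTCG at 10 of 12 and GAGACC at 8 of 14. Over the whole stretch from 500 to 100 bp upstream, ACCGTA was present at 54.5% of the members with a peak, 23.5% of those without (4 of 17) and 11.8% of all genes. CACTCG showed 42.4%, 5.88% and 7.12% in the same order. GAGACC was as frequent without a peak as with one, at 47.1% and 42.4%, against 10.9% of all genes. These words were picked at the summits of the members with a peak. Their shares are therefore a description and cannot test a difference from the members without one.

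The word AAGTG, known as the core bound by homeodomains of this class, was present within 50 bp at 13 of 33 member summits (39.4%), 28% of other promoter peaks and 18.2% of the 22 small-subunit peaks. The 5 strongest members, whose windows are printed above, each held it, with 3 copies at rpl-35, 2 at rpl-3 and rpl-20, and 1 at rpl-15 and rpl-12. At least 2 copies were present at 5 members (15.2%) and 5.76% of other promoter peaks. Among the 17 stronger members 9 held it and among the 16 weaker 4, a split that was not made at other promoter peaks. From 500 to 100 bp upstream its share was 69.7% with a peak, 70.6% without and 59.9% over all genes, so that the word by itself does not separate these groups. Of the common promoter elements, TATAAA was present at 0 member peaks against 2.8% of other promoter peaks, TTTTTT at 2 (6.06%) against 17%, and GAGAG at 6 (18.2%) against 45.8%. A match is a description of the letters in these windows and not a measured binding site.

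Genes that act in the ribosome, its assembly or at the nascent chain were looked up in short lists by role. The ubiquitin fusions were not restricted to proteins of the large subunit. Over all protein-coding genes the share with a promoter peak was 8.47%. Both ubiquitin fusion genes, ubq-2 and ubl-1, which encode a ribosomal protein behind a ubiquitin or ubiquitin-like domain, had a promoter peak, with signals of 153 and 148 and summits 470 and 201 bp upstream. Both nascent chain genes had one, icd-1 and icd-2 at 237 each, whose products form the complex that meets the new chain at the tunnel exit. Of 14 nucleolar and assembly genes 7 had one. fib-1, for the rRNA methylase fibrillarin, was the strongest at 335, followed by lpd-7 (192), nol-56 (163) and nog-1 (139), then nol-58 (137), pro-1 (109) and nola-3 (101). The peak counted for lpd-7 is the member peak of rpl-9, whose 5' end is the nearer one. Of 4 genes for subunits of RNA polymerase I, which transcribes ribosomal RNA, 1 had a peak, rpoa-12 at 121. All of these signals were below those of the 4 strongest members. Ubiquitin fusions aside, RefSeq product names gave a cytosolic large-subunit protein for 4 genes that the symbol rule leaves out. Of these, 1, F28A10.13 (L35), had a promoter peak, at rank 1746. C37A2.7, a further P2 gene, ranked 2595 in the pooled list, 7122 in replicate 1 and 2046 in replicate 4, and Y37E3.8, for uL15, ranked 4470, 3343 and 5478. T08B6.1, annotated as L35a, had no promoter summit in any list.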

How the data were processed

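Per the labels, 4 region lists (build ce11) cover 2 replicates: each replicate, both pooled, and a reproducible set filtered by irreproducible discovery rate (IDR). A description names anti-GFP as the antibody, whereas the antibody entry gives ceh-27, and sonication gave a fragment range of 200 to 800. The aligner, caller and cutoff were not given in the sources used here. Each region carries the authors' signal, of unstated scale, and a deposited −log10 q value. The replicate and pooled lists each hold 30000 regions and so include background. The reproducible set is the 2328 strongest regions of the pooled list, with the same signals. A control was named and not analysed here.

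Summits were assigned to every protein-coding gene (Ensembl release 115) whose promoter window held them, ranked by signal, and the strongest was kept for each gene. The assignment was tested on simulated data. Sequence came from the RefSeq FASTA of WBcel235, and products from its annotation. With 1 group no test between groups exists, and members stand beside all genes, similar families or other promoter peaks. The members and lists were chosen with earlier results of these data known. The 3 words of 6 bases, the band of 200 to 450 bp, and the look at RefSeq products were chosen after values were seen. Full values were given by rule for the 12 strongest members, every member without a reproducible summit and each pair of paralogues, and sequences for the 5 strongest and 2 without a peak. Other members named, and the neighbours, were chosen after their values were seen. Alternatives changed the window, the assignment, the list and the motif. The analysis ran in Python 3.11.15 with pandas 2.3.3 and numpy 2.4.6, rho came from scipy 1.17.1, and figures were drawn with matplotlib 3.10.9.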

Additional observations from a re-analysis of the deposited data

How the results depend on the processing

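The count of 33 members with a promoter peak was 32 with 500 bp upstream (6.64% of all genes), 34 with 2000 bp (2238 of 19973 genes), 32 with none downstream (8.19%), 34 with any overlap of the region in place of the summit (9.11%) and 33 with the most upstream 5' end alone (7.72%). It was 24 over the 1164 strongest peaks, where all genes with a peak were 4.91%, and it fell to 21 when each summit was given to the nearest gene only (6.35% of all genes), since 12 members lost a shared peak to a neighbour, rpl-20 and rpl-43 among them. With 1 replicate left out, the count ranged from 32 to 36, the share of all genes from 8.08% to 8.47%, the median distance from 298.5 to 306 bp, the median rank from 646.5 to 678 and the share with AAGTG from 34.4% to 41.7%. Replicate 1 alone gained rla-0, rpl-13, rpl-16, rpl-19, rpl-25.2 and rpl-27 and lost rla-1, rpl-1 and rpl-33, and replicate 4 alone lost rpl-31. Members with a promoter summit in both replicates, coincident or not, numbered 29 among the strongest regions and 45 over all regions. The share with AAGTG was 48.5% within 100 bp and 21.2% for CAAGTG or TAAGTG, both by construction of the wider window or the longer word. Neither share was counted at other promoter peaks. The replicates' strongest summits were a median of 14 bp apart, or 12 bp when the summits nearest to the reproducible one were taken. In all, 19 members kept their peak under every alternative other than the 1164 strongest peaks. The unstated depth limits all counts near the edge of the reproducible set. No paired analysis was possible because there was 1 group.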

Other observations

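ACCGTA was also present within 50 bp of 67 reproducible promoter summits other than those at rpl-, rla- or rps- genes, 5.31% of 1262. They include the summits at ubq-2 (153, shared with frg-1) and ubl-1 (148), which encode ribosomal proteins fused to ubiquitin or a like domain. The strongest, by the authors' signal, were at ntl-2 (692), at cox-5B (636) and cox-5A (581), which encode subunits of cytochrome oxidase, at serp-1.1 (554) and at cbp-1 (470), which encodes a histone acetyltransferase. Others were at summits shared by atp-1, for a subunit of ATP synthase, and mcrs-1 (374), by eef-1A.1 and rfc-4 (373), and by eef-2 and clsp-1 (244), both eef genes encoding elongation factors. These peaks were chosen after their values were seen, and the list is a description.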
